A study of Mus musculus with 12 samples.

Results

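The interferon-gamma inducible GTPases described here are 10 mouse genes. They comprise 6 guanylate-binding proteins (Gbp2, Gbp3, Gbp4, Gbp5, Gbp7 and Gbp9), the effector GTPase Iigp1, and the 3 regulatory immunity-related GTPases Irgm1, Irgm2 and Igtp. Their rows were found by matching the Entrez gene numbers of the count files to RefSeq symbols. All 10 were found among 27179 genes, and all 10 passed the filter on low counts that left 19398 genes for testing. In build GRCm38, Gbp5, Gbp7, Gbp3 and Gbp2 follow each other on chromosome 3 between 142496934 and 142638008, and Gbp9 and Gbp4 are neighbours on chromosome 5 between 105076464 and 105139586. Irgm1 lies on chromosome 11 from 48865245 to 48871420, Igtp and Irgm2 next to each other on chromosome 11 between 58199556 and 58222783, and Iigp1 on chromosome 18 from 60373616 to 60392634.

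RNA was sequenced from sorted thymic epithelial cells, the stromal cells of the thymus that support and select developing T cells. The comparison was between mice in which HOIL, the product of Rbck1 and a subunit of the linear ubiquitin chain assembly complex, had been deleted in these cells and mice that kept it. The deletion joined floxed Hoil alleles with 1 copy of a Foxn1-driven Cre (Foxn1creT/+ HOILlox/lox), so it is limited to cells that have used the Foxn1 promoter and their descendants. Controls carried the same floxed alleles without Cre (Foxn1cre+/+ Hoillox/lox). All mice were C57BL/6, untreated, and of an age that the labels do not give. Cortical cells (cTECs) were gated as EpCAM+ Ly51+ UEA1- and medullary cells with high MHC class II (mTEChi) as EpCAM+ Ly51- UEA1+. Blood and vessel-lining cells had been gated out by CD45, TER-119 and CD31. Each cell type was sequenced with and without HOIL, giving 4 groups of 3 libraries. HOIL-deficient replicate 3 was female in both cell types, and the other libraries were male. By sex, HOIL-deficient replicate 3 did not come from the animals of the other HOIL-deficient replicates. For the male libraries the labels do not say whether replicates were separate animals. A p-value here therefore reflects only how far these libraries spread, which may be partly technical and in HOIL-deficient groups includes sex.

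Interferon-gamma binds a receptor made of IFNGR1 and IFNGR2, which signals through the kinases JAK1 and JAK2 to genes with GAS elements. One of the induced genes is the transcription factor IRF1, which binds interferon-stimulated response elements (ISRE), and genes of the GTPase families carry such elements near their start sites. Guanylate-binding proteins and effector immunity-related GTPases such as Iigp1 coat the vacuoles in which intracellular pathogens live, while Irgm1, Irgm2 and Igtp keep the effectors inactive on the membranes of the host.

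RefSeq promoter windows, from 250 bases before to 50 bases after a start site (build GRCm38.p6), were matched for 7 of the 10 genes: Gbp2, Gbp3, Gbp5, Gbp7, Irgm1, Irgm2 and Igtp. No window was matched for Gbp4 and Gbp9. Iigp1 was not searched because the search left out its chromosome. The motif counts below therefore cover only the 7 genes. For Iigp1 this does not show that RefSeq lacks a window, and its motifs are not known from this search. An ISRE core, 2 copies of GAAA separated by any 2 bases and searched on both strands, was present in a window of 7 of 7 genes and in 3.44% of the 32851 windows of the same length. A GAS motif, spelled TTCNNNGAA, was present for 4 of the 7 (Gbp5, Gbp7, Irgm2 and Igtp) and in 8.3% of all windows. The NF-kB motif was present for Gbp2 and Gbp5 and in 8.46% of all windows. The 7 genes had 8 windows, because Gbp3 had a further window that held none of these motifs. Member counts are thus per gene and the shares over all windows are per window. The 250 bases before the start site are shown for 5 genes, with the ISRE core in capitals. Gbp2 and Igtp are shown because they fell in cTECs, Gbp3 and Gbp7 because they rose in mTEChi, and Irgm1 because it had the highest level per length in cTECs. They lie at chr3:142620413-142620662 (plus strand, Gbp2), chr11:58199306-58199555 (plus strand, Igtp), chr3:142559794-142560043 (plus strand, Gbp3), chr3:142530086-142530335 (plus strand, Gbp7) and chr11:48871421-48871670 (minus strand, Irgm1), each printed 5′ to 3′ along the gene.
Gbp2: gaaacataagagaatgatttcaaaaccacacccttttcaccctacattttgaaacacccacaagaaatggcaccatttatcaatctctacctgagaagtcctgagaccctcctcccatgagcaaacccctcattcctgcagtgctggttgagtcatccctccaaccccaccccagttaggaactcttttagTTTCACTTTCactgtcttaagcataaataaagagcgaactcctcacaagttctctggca
Igtp: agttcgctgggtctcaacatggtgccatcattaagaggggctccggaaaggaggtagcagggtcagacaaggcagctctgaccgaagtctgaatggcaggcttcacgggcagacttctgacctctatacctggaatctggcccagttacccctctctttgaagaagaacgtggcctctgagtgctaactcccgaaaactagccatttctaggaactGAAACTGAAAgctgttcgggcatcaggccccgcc
Gbp3: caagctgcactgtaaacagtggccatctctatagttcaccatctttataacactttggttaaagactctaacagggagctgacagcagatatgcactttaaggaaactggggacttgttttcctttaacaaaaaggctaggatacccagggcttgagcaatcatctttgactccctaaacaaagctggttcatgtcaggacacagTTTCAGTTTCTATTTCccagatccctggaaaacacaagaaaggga
Gbp7: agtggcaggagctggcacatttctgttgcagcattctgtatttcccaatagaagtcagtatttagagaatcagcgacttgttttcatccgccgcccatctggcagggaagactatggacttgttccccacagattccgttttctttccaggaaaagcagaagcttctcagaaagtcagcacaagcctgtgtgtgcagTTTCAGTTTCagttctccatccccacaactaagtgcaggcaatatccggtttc
Irgm1: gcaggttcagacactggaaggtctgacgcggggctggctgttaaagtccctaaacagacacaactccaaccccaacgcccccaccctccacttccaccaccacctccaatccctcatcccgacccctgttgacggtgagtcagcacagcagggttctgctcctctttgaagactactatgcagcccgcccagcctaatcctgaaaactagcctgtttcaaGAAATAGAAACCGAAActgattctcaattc
The cores of these 5 genes all lay within the last 59 bases before the start. That of Gbp2 was at -59 to -50, that of Gbp7 at -53 to -44 and that of Igtp at -34 to -25. Gbp3 and Irgm1 each held 2 cores that overlap one another, at -45 to -36 and -39 to -30 in Gbp3 and at -30 to -21 and -24 to -15 in Irgm1. In Igtp a GAS motif stood at -45 to -37, just before the core. Irgm2, the neighbour of Igtp on chromosome 11, had the same order, with GAS at -75 to -67 and the core at -64 to -55, and the 250 bases before the starts of this pair shared an identical run of 55 bases. Gbp5 differed from the others in having its core farther away, at -165 to -156. A match to a motif is a description of the sequence and does not show that a factor bound it.

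Total counts were 7941217 to 14274333 per library, and a member had between 10 and 3453 counts in a library. Rbck1, the deleted gene, gave 182.8, 236.1 and 220.6 CPM (counts scaled to a common library total) in control cTECs against 22.02, 32.99 and 22.55 without HOIL, and 114.4, 128.2 and 108.2 against 10.95, 11.68 and 23.26 in mTEChi. Summed levels of 6 cTEC markers were 23182 to 29637 CPM in control cTECs and 1573 to 1920 CPM in control mTEChi, and those of 6 mTEC markers were 161 to 286 and 1436 to 2085 CPM, as the labels say. HOIL-deficient cTECs held less of the cTEC marker sum, at 12138 to 12530 CPM. In bulk libraries fewer cells of a type and less RNA per cell cannot be told apart.

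Levels of different genes are compared as CPM per kilobase of the gene length deposited with the counts. In control cTECs the highest member was Irgm1, at 137 ± 16 CPM per kilobase (SD, n = 3, as for all means below). Iigp1 followed at 63.4 ± 26.8, Igtp at 63.2 ± 4.13, Gbp2 at 50.9 ± 4.92 and Gbp3 at 36.4 ± 7.45 CPM per kilobase. Iigp1 and Igtp overlapped, whereas Irgm1, Gbp2 and Gbp3 did not overlap their neighbours in this order. Gbp9 (14.9 ± 2.70), Gbp4 (14.3 ± 4.67), Irgm2 (13.6 ± 3.92) and Gbp7 (10.1 ± 1.16 CPM per kilobase) formed a lower group in which each overlapped the next. Gbp5, a guanylate-binding protein linked to inflammasome assembly, was lowest in all 4 groups, at 1.68 ± 0.844 CPM per kilobase in control cTECs. In control mTEChi the order changed, with Igtp first at 53.5 ± 12.3, Irgm1 next at 43.7 ± 14.9, Iigp1 at 36.0 ± 11.6 and Gbp4 at 24.5 ± 8.76 CPM per kilobase, each overlapping its neighbour. Over all 12 libraries Igtp ranged least, 2.06-fold from the lowest to the highest CPM, and Gbp5 ranged most, 22.3-fold.

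**Figure D1:**
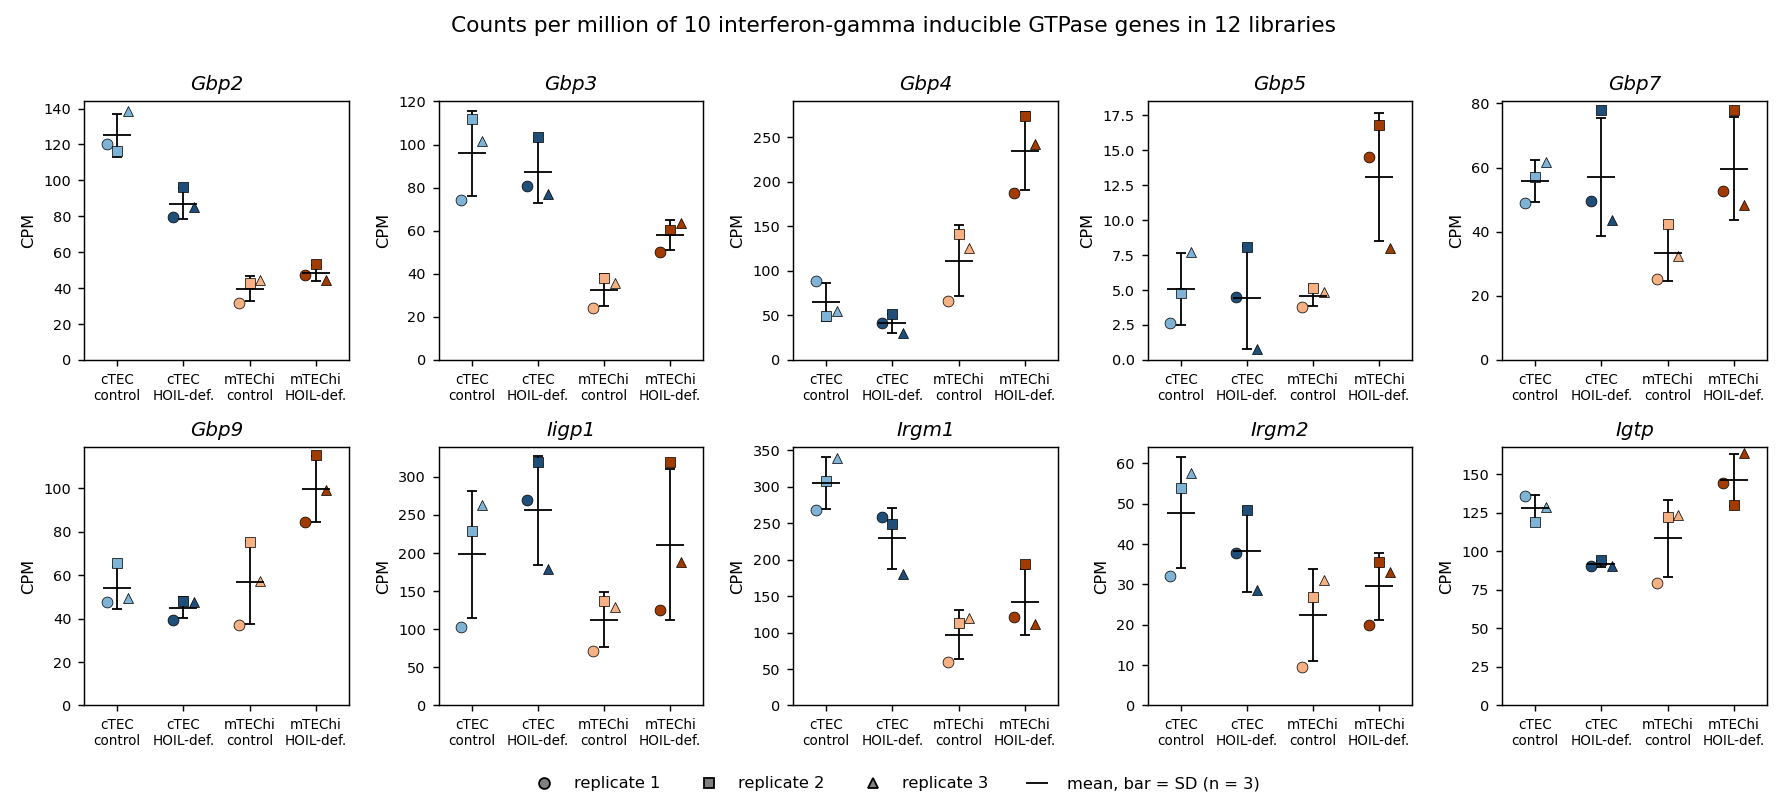
CPM (vertical axes, linear from 0) of the 10 genes in every library, by group. Symbols mark the replicate number, and the horizontal line and bar give the mean and SD of 3 libraries. Control mTEChi replicate 1 (circle) is the lowest of its group in all 10 panels, and HOIL-deficient mTEChi stand above all control mTEChi for Gbp3, Gbp4, Gbp5, Gbp7, Gbp9 and Igtp.

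Loss of HOIL in cTECs was followed by lower Gbp2 and Igtp, while the other 8 members did not pass the test. By edgeR's quasi-likelihood test with Benjamini-Hochberg adjustment over all tested genes, 2 of 10 members fell at an adjusted p under 0.05, against 6.02% of all tested genes called lower and 12.1% called in either direction. None was called higher, against 6.06% of all tested genes (0 of 10 by edgeR, DESeq2 and limma-voom, and 0 at an unadjusted p under 0.05 by each). The log2 fold change was negative for 9 of the 10, with a median of -0.38 over the members and -0.02 over all tested genes.

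Gbp2, which coats the vacuole of Toxoplasma, gave 120.2, 116.2 and 138.8 CPM in control cTECs and 79.57, 96.32 and 84.92 CPM without HOIL. All HOIL-deficient libraries were below all controls. The log2 fold change of Gbp2 was -0.61 ± 0.16 (SE; edgeR adjusted p = 0.022). Igtp, a regulator of the effector GTPases, gave 135.7, 119.1 and 128.9 CPM in control cTECs and 90.58, 94.16 and 90.42 CPM without HOIL. Here too the groups did not overlap, and the log2 fold change was -0.57 ± 0.16 (edgeR adjusted p = 0.033). Irgm1 also separated, with 268.6, 308.5 and 339.6 CPM in controls and 258, 248.7 and 181 CPM without HOIL. Its libraries did not overlap, but the log2 fold change of -0.50 ± 0.25 did not pass (edgeR adjusted p = 0.22). Libraries did not overlap for these 3 of the 10 members, and for 27.8% of all tested genes.

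Gbp4 had the most negative value in cTECs, -0.74 ± 0.29 on the log2 scale (edgeR adjusted p = 0.11), from 88.96, 49.74 and 55.37 CPM in controls and 41.92, 51.64 and 30.47 CPM without HOIL. Control replicate 1 stood above the rest and the groups overlapped. Iigp1 was the exception in sign, with 103.4, 228.7 and 262.5 CPM in controls and 269, 319.4 and 179.3 CPM without HOIL (log2 fold change 0.29 ± 0.36, edgeR adjusted p = 0.68). Its groups overlapped widely, and without control cTEC replicate 1 its log2 fold change was -0.01. The log2 fold changes of Gbp3, Gbp5, Gbp7, Gbp9 and Irgm2 lay between -0.40 and -0.05. Those of Gbp5 and Gbp7 turned positive, to at most 0.25 and 0.12, without control cTEC replicate 3 or HOIL-deficient cTEC replicate 3, and that of Gbp7 also without HOIL-deficient cTEC replicate 1 and with RLE, upper-quartile or DESeq2 scaling.

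The calls in cTECs depended on the libraries and the settings. Gbp2 lost its call with only the groups compared, with male libraries alone, and without control cTEC replicate 3 or HOIL-deficient cTEC replicate 1 or 3, with log2 fold changes from -0.70 to -0.54 and an adjusted p of at most 0.093 over 20 alternatives. Igtp lost its call in 14 of 20 alternatives, among them RLE or upper-quartile factors, no filter, only the groups compared and male libraries alone, and the fits without any 1 of the 6 cTEC libraries, control mTEChi replicate 3 or HOIL-deficient mTEChi replicate 3, with log2 fold changes from -0.61 to -0.50 and an adjusted p of at most 0.11. Markers of other cells moved as well: the sum of 15 thymocyte markers was 1161 to 4062 CPM in control cTECs and 464 to 918 CPM without HOIL, with 13 of 15 called lower and none at 0 in a whole group. The sum of 11 fibroblast and pericyte markers was 194 to 1405 against 2640 to 3742 CPM, with 6 called higher, and that of 12 endothelial markers 41.1 to 82.5 against 187 to 488 CPM, with 11 called higher. Sums of 12 dendritic cell and macrophage markers were 31.3 to 45.2 against 55.5 to 127 CPM, with 1 of 10 tested called higher and 0 lower. Sums of 9 NK and cytotoxic cell markers were 8.56 to 21.9 and 2.66 to 11.1 CPM, with Ncr1 and Klrk1 at 0 in all 6 libraries. The part of these cells in the result was not tested.

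In HOIL-deficient mTEChi Gbp3, Gbp4, Gbp7 and Gbp9 rose, while Gbp2, Gbp5, Iigp1 and the 3 regulators did not pass, so that 4 of 10 members were called higher, against 11.3% of all tested genes called higher and 19.9% called in either direction. None was called lower, against 8.59% of all tested genes (0 of 10 by edgeR, DESeq2 and limma-voom, and 0 at an unadjusted p under 0.05 by each). The log2 fold change was positive for 10 of 10, with a median of 0.78 over the members and -0.03 over all tested genes.

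Gbp4, from the cluster of guanylate-binding protein genes on chromosome 5, gave 66.13, 141.3 and 126.1 CPM in control mTEChi and 187.7, 273.9 and 241.9 CPM without HOIL. Every HOIL-deficient library exceeded every control. The log2 fold change was 1.03 ± 0.28 (edgeR adjusted p = 0.022). Gbp9, its neighbour on chromosome 5, gave 37.16, 75.49 and 57.4 CPM in controls and 84.74, 115.4 and 99.27 CPM without HOIL. Its groups did not overlap either, and the log2 fold change was 0.77 ± 0.22 (edgeR adjusted p = 0.024).

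Gbp3, from the cluster on chromosome 3, gave 24.06, 37.85 and 35.53 CPM in control mTEChi and 50.31, 60.43 and 63.54 CPM without HOIL. The log2 fold change was 0.79 ± 0.20 (edgeR adjusted p = 0.016), again with no overlap. Gbp7, next to Gbp3, gave 25.29, 42.5 and 32.4 CPM in controls and 52.68, 77.99 and 48.34 CPM without HOIL. HOIL-deficient replicate 2 was well above the other 2, and all 3 were above the controls, for a log2 fold change of 0.78 ± 0.25 (edgeR adjusted p = 0.043). This call held in 11 of 20 alternatives and was lost with RLE or upper-quartile factors, with limma-voom, and without replicate 2 or 3 of control cTECs, 1 or 3 of control mTEChi or 1 or 2 of HOIL-deficient mTEChi (adjusted p of at most 0.19). Of the 75-base windows in the transcripts of Gbp7, 11.3% were also found in transcripts of another gene, the highest share among the members, so some of its counts could have been assigned elsewhere. Gbp5 had the largest value, 1.45 ± 0.62 on the log2 scale, from 3.788, 5.171 and 4.86 CPM in controls and 14.5, 16.81 and 7.986 CPM without HOIL. Its groups did not overlap, but it did not pass (edgeR adjusted p = 0.12), and it had 37 to 180 counts per library.

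Gbp2, at 31.84, 42.81 and 44.44 CPM in control mTEChi and 47.15, 53.52 and 44.42 CPM without HOIL, changed least (log2 fold change 0.23 ± 0.16, edgeR adjusted p = 0.34). Its groups overlapped only between control replicate 3 and HOIL-deficient replicate 3. The regulators were likewise not called: Igtp had a log2 fold change of 0.38 ± 0.16, Irgm1 of 0.50 ± 0.25 and Irgm2 of 0.35 ± 0.36 (edgeR adjusted p = 0.11, 0.18 and 0.54). Igtp was the only one of these whose groups separated, with 79.55, 122 and 123.2 CPM in controls and 144.3, 129.9 and 163.6 CPM without HOIL. Iigp1 gave 70.95, 137.3 and 129.4 CPM in controls and 124.7, 319.5 and 188.6 CPM without HOIL (log2 fold change 0.86 ± 0.37, edgeR adjusted p = 0.12). Libraries did not overlap for 6 of 10 members, Gbp3, Gbp4, Gbp5, Gbp7, Gbp9 and Igtp, and for 44.5% of all tested genes.

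These calls depended on single libraries. Control mTEChi replicate 1 was the lowest of its group for all 10 members, and without it 0 of 10 were called by edgeR, with 4 at an unadjusted p under 0.05. The log2 fold changes then had a median of 0.58 and 9 of 10 stayed positive, with Gbp4 at 0.77 (adjusted p = 0.11), Gbp3 at 0.62 (adjusted p = 0.079) and Irgm2 at -0.02. Leaving out control replicate 3 or HOIL-deficient replicate 2 or 3 left 1 of 10 called. Without HOIL-deficient replicate 2 the median was 0.51, with 4 at an unadjusted p under 0.05. All genes called higher in mTEChi numbered 2191 in the main fit and 1170 without control replicate 1. Control mTEChi also stood apart in RNA content: mitochondrial transcripts made up 3.19% to 8.93% of their counts, highest in replicate 1, against 1.71% to 1.91% without HOIL, and Malat1, a nuclear RNA, 3.29% to 5.13% against 0.713% to 0.983%. Endothelial marker sums were 113 to 147 CPM in controls and 285 to 743 CPM without HOIL (9 of 12 called higher), and sums of 9 NK and cytotoxic cell markers 58.1 to 83.6 and 105 to 126 CPM (1 called higher and 1 lower of 6 tested), with none at 0. Fibroblast and pericyte marker sums were 326 to 395 and 647 to 842 CPM (2 of 11 called higher), mTEC marker sums 1436 to 2085 and 2171 to 2623 CPM (1 of 6), and sums of 5 general TEC markers 9413 to 11598 and 13233 to 16015 CPM (3 of 5). Dendritic cell and macrophage marker sums overlapped, at 745 to 1172 and 863 to 1072 CPM. The part of RNA content and of other cells in the result was not tested.

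**Figure D2:**
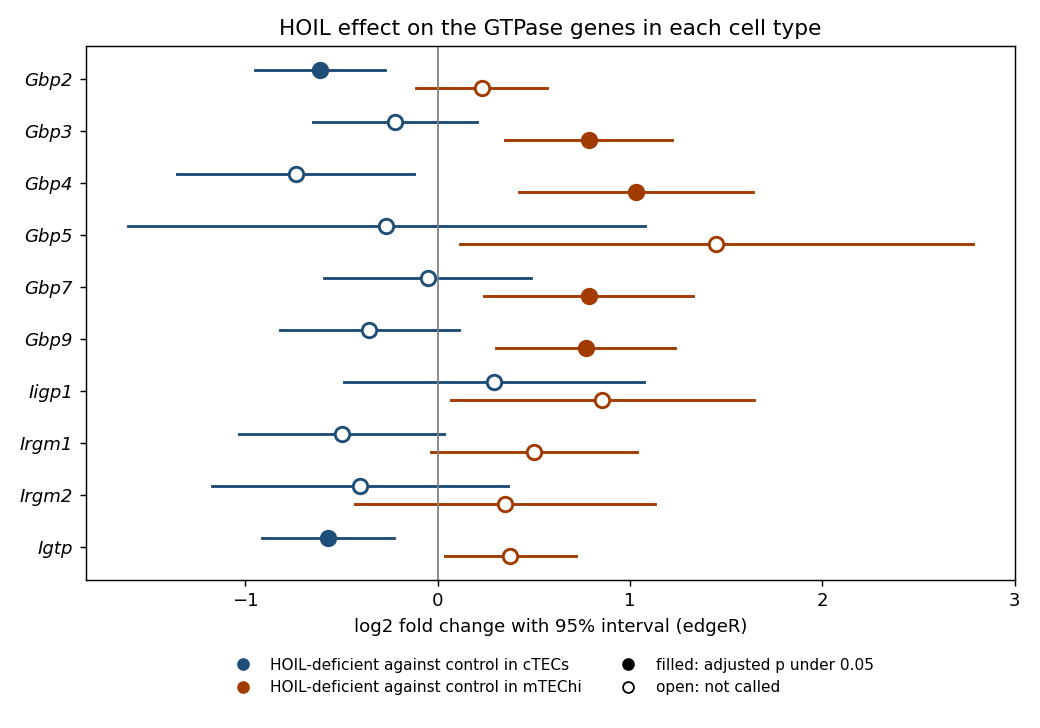
Log2 fold change of each gene without HOIL (horizontal axis) with its 95% interval from edgeR, in cTECs (blue) and mTEChi (red), filled where the adjusted p is under 0.05. All 10 mTEChi values lie right of 0, and 9 of the 10 cTEC values lie left of it.

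Whether HOIL loss acted differently in the 2 cell types was tested as the difference of the log2 fold changes, mTEChi minus cTECs, in the same fit. The difference passed for Gbp2, Gbp3, Gbp4, Gbp9 and Igtp, 5 of 10 members, all positive, against 5.97% of all tested genes called in that direction, 3.87% in the other and 9.84% in either. It was positive for 10 of 10 members, with a median of 0.97 against 0.09 over all tested genes. Gbp4 had the largest difference, 1.77 ± 0.40 on the log2 scale (edgeR adjusted p = 0.016). Gbp9 differed by 1.12 ± 0.31, Gbp3 by 1.01 ± 0.28, Igtp by 0.95 ± 0.23 and Gbp2 by 0.84 ± 0.22 (edgeR adjusted p = 0.034, 0.038, 0.02 and 0.031). For Gbp2 and Igtp the cTEC decrease made the larger share of the difference, and for Gbp3 and Gbp9 the mTEChi increase did. Irgm1 differed by 1.00 ± 0.35 without passing (edgeR adjusted p = 0.087), and Iigp1 had the smallest difference, 0.56 ± 0.52 (edgeR adjusted p = 0.52).

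The call for Gbp4 was lost in 1 of 20 alternatives, with the male libraries alone (log2 difference 1.46 to 1.98 over all 20, adjusted p of at most 0.061). Igtp lost its call in 3, among them without HOIL-deficient mTEChi replicate 3. Gbp2 and Gbp3 each lost theirs in 12 and Gbp9 in 10, in each case without HOIL-deficient cTEC replicate 1 or 3, control mTEChi replicate 1 or 3, or HOIL-deficient mTEChi replicate 2 or 3. The call also went without HOIL-deficient mTEChi replicate 1 for Gbp2, without control cTEC replicate 3 for Gbp2 and Gbp3, and without control cTEC replicate 2 for Gbp3 and Gbp9. With male libraries alone 0 of 10 passed by edgeR, with 8 at an unadjusted p under 0.05.

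The cell types also differed in level with HOIL present. In controls Gbp2, Gbp3, Gbp7, Irgm1 and Irgm2 were lower in mTEChi than in cTECs and Gbp4 was higher, 5 and 1 of 10 members against 26.4% and 37.8% of all tested genes, 64.2% being called in either direction. Taken in either direction, the members called lay near that share. Irgm1 was lower by -1.57 ± 0.25 on the log2 scale (edgeR adjusted p = 0.00011), from the 3 control cTEC values above and 59.27, 112.9 and 119.9 CPM in control mTEChi. Gbp2 was lower by -1.57 ± 0.16 and Gbp3 by -1.48 ± 0.20 (edgeR adjusted p = 1.8e-06 and 2.9e-05). The calls of Irgm1, Gbp2 and Gbp3 held in all 21 alternatives run. Libraries of the 2 cell types did not overlap for these 3 or for Irgm2 and Gbp7. That is 5 of 10 members, against 71.2% of all tested genes. Irgm2 was lower by -1.01 ± 0.36 and Gbp7 by -0.66 ± 0.25 (edgeR adjusted p = 0.026 and 0.035), and both lost their calls with RLE, upper-quartile or DESeq2 scaling and without control cTEC replicate 2 or 3 or control mTEChi replicate 1, Gbp7 also without control mTEChi replicate 3. Gbp4 was higher by 0.85 ± 0.28 (edgeR adjusted p = 0.018), a call lost without replicate 2 or 3 of either control group. Its libraries overlapped between the cell types.

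Without HOIL 4 of 10 members were higher in mTEChi and 1 was lower, against 32% and 16.4% of all tested genes, 48.4% being called in either direction. These counts lay near the background. Gbp4 was higher by 2.62 ± 0.30 on the log2 scale, Gbp9 by 1.27 ± 0.22, Igtp by 0.79 ± 0.16 and Gbp5 by 1.68 ± 0.63 (edgeR adjusted p = 6.7e-06, 0.00027, 0.00094 and 0.039). Gbp2 was lower by -0.73 ± 0.16 (edgeR adjusted p = 0.0016). The calls of Gbp2, Gbp4, Gbp9 and Igtp held in all 21 alternatives. That of Gbp5 did not, and the Gbp5 libraries of the 2 cell types overlapped. The Gbp5 call was lost with only the groups compared. It was also lost without HOIL-deficient cTEC replicate 1 or 3, any control mTEChi library, or HOIL-deficient mTEChi replicate 1 or 2. The median over the members was 0.01, against -0.69 in controls. These comparisons use the same libraries as the HOIL comparisons, and the test of the change between them is the difference given above. Thymocyte marker sums were 155 to 240 CPM in control mTEChi, below those of control cTECs, and dendritic cell and macrophage marker sums were 31.3 to 45.2 CPM in control cTECs, below those of mTEChi. The part of these cells was not tested.

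Of 13 interferon-gamma signalling genes described here, 2 fell in HOIL-deficient cTECs (Irf1 and Jak2), 4 rose in HOIL-deficient mTEChi (Ifngr1, Ifngr2, Jak1 and Pias1), and 5 had a positive difference of effects (Ifngr1, Jak1, Jak2, Irf1 and Pias1), against 6.02%, 11.3% and 5.97% of all tested genes. None rose in cTECs and none fell in mTEChi by edgeR, with 1 each at an unadjusted p under 0.05, and DESeq2 and limma-voom each called 1 lower in mTEChi. The receptor subunit Ifngr1 gave 31.94, 59.98 and 57.74 CPM in control mTEChi and 87.6, 118.7 and 110.8 CPM without HOIL (log2 fold change 1.03 ± 0.30, edgeR adjusted p = 0.026). In control cTECs replicate 1 reached 316.9 CPM for Ifngr1 against 125.7 and 158.8 in the other 2, and 131.7 to 144.5 CPM without HOIL. Its mTEChi call was lost with male libraries alone, and without control mTEChi replicate 1 or 3 or HOIL-deficient mTEChi replicate 2 or 3. The second subunit, Ifngr2, gave 133.2, 248.8 and 209.8 CPM in control mTEChi and 382.4, 348.3 and 369.8 CPM without HOIL (log2 fold change 0.85 ± 0.18, edgeR adjusted p = 0.0062). In cTECs Ifngr2 overlapped between the groups, with a log2 fold change of 0.09 ± 0.18.

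The receptor kinase Jak1 rose in mTEChi from 135, 177.6 and 158.5 CPM to 428.1, 350.5 and 396.7 CPM (log2 fold change 1.26 ± 0.16, edgeR adjusted p = 0.00027), with no overlap. Its partner Jak2 fell in cTECs, from 109.5, 136.6 and 109.7 CPM to 68.56, 82.28 and 55.28 CPM (log2 fold change -0.87 ± 0.21, edgeR adjusted p = 0.015). This Jak2 call was lost with male libraries alone, and without control cTEC replicate 2 or HOIL-deficient cTEC replicate 3. The difference of effects was 1.51 ± 0.22 for Jak1 and 1.13 ± 0.29 for Jak2 (edgeR adjusted p = 0.0017 and 0.027). The call of the difference held in all 20 alternatives for Jak1, in 18 for Pias1, 13 for Ifngr1, 11 for Jak2 and 7 for Irf1. The mTEChi call of Pias1 held in 7 of 20.

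Irf1, the transcription factor that binds ISRE, fell in cTECs, from 804.2, 940.7 and 945 CPM to 564.5, 611.5 and 543.8 CPM (log2 fold change -0.73 ± 0.13, edgeR adjusted p = 0.0034). In mTEChi Irf1 gave 237.3, 327.8 and 321.2 CPM with HOIL and 282.1, 310.4 and 299.1 CPM without it, which overlap (log2 fold change -0.05 ± 0.13). The calls of Ifngr2 and Jak1 in mTEChi and of Irf1 in cTECs held in all 20 alternatives, among them the fit without control mTEChi replicate 1, where Ifngr2 was at 0.64 (adjusted p = 0.023) in mTEChi. Transcripts of interferon-gamma itself (Ifng) were at 0 to 3 counts in every cTEC library, at or under the 3 counts that a count of 0 allows. In mTEChi they gave 5.119, 4.033 and 6.249 CPM with HOIL and 0.7892, 1.868 and 3.223 CPM without it, with no overlap but no call (edgeR adjusted p = 0.19).

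**Figure D3:**
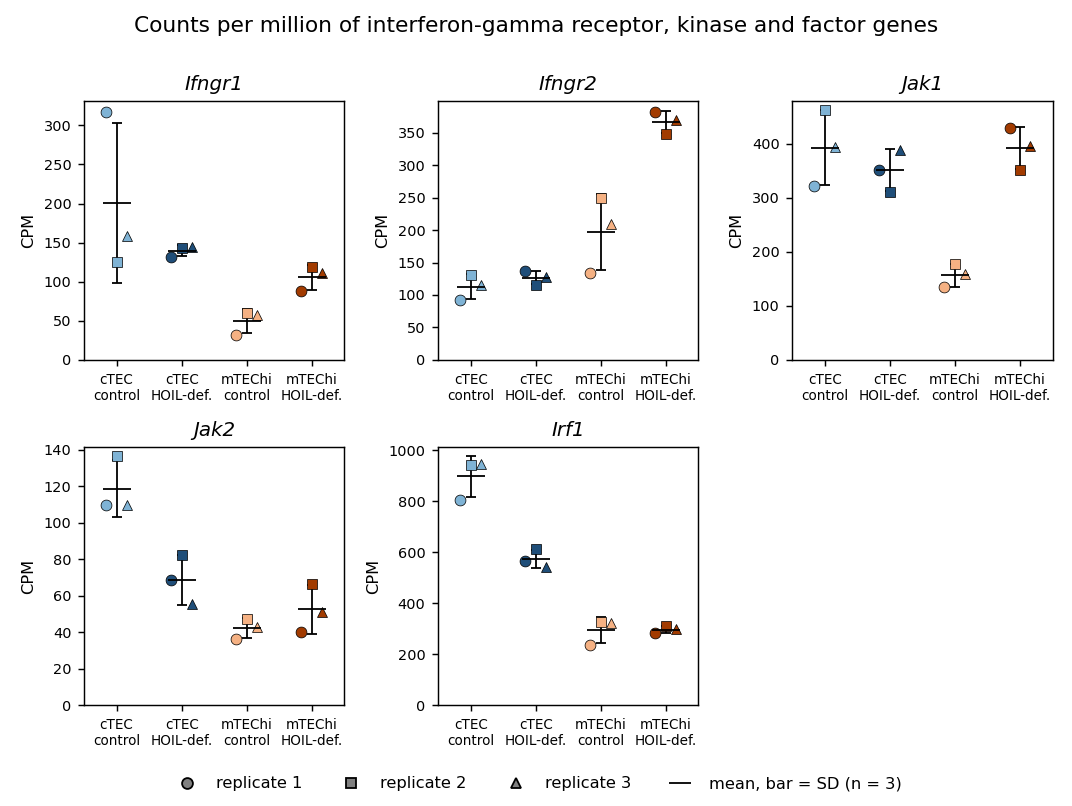
CPM (vertical axes, linear from 0) of Ifngr1, Ifngr2, Jak1, Jak2 and Irf1 in every library, with mean and SD of 3 libraries. Irf1 and Jak2 are lower without HOIL in cTECs, and Ifngr1, Ifngr2 and Jak1 are higher without HOIL in mTEChi.

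Of 19 related GTPase genes outside the 10, 5 fell in HOIL-deficient cTECs and 2 rose in HOIL-deficient mTEChi, against 6.02% and 11.3% of all tested genes. The median log2 fold change in cTECs was -0.80 over these 19 and -0.38 over the members. Gbp6 fell from 85.55, 83.74 and 84.29 CPM to 45.83, 48.16 and 32.88 CPM (log2 fold change -1.09 ± 0.19, edgeR adjusted p = 0.0028), and the 3 control values were nearly equal. Gbp8 fell from 170.6, 73.41 and 83.67 CPM to 34.34, 29 and 45.17 CPM (log2 fold change -1.69 ± 0.27, edgeR adjusted p = 0.0019). Tgtp1, an effector immunity-related GTPase, fell from 819.6, 814.7 and 808.8 CPM to 298, 345 and 160.8 CPM (log2 fold change -1.69 ± 0.28, edgeR adjusted p = 0.002). Tgtp1 and Tgtp2 are near-identical copies whose counts cannot be divided between them with certainty. The calls of Gbp6, Gbp8, Tgtp1 and Tgtp2 in cTECs held in all 20 alternatives, and the fifth, 9930111J21Rik1, had a log2 fold change of -1.09 ± 0.29. It lost its call with male libraries alone, with the replicate block, and without control cTEC replicate 2 or 3 or any HOIL-deficient cTEC library.

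In mTEChi the 2 that rose were again guanylate-binding proteins. Gbp10 gave 7.883, 22.03 and 20.48 CPM with HOIL and 29.69, 39.04 and 41.12 CPM without it (log2 fold change 1.08 ± 0.31, edgeR adjusted p = 0.026). Control replicate 1 was low here too, and without it Gbp10 was at 0.74 (adjusted p = 0.081), its call being lost also with male libraries alone and without HOIL-deficient mTEChi replicate 2 or 3. Gbp2b gave 5.426, 8.48 and 9.026 CPM with HOIL and 22.69, 26.34 and 19.83 CPM without it (log2 fold change 1.53 ± 0.46, edgeR adjusted p = 0.032), a call lost with male libraries alone and without any 1 of the 6 mTEChi libraries. In cTECs Gbp2b was at 0 to 4 counts per library. The difference of effects was positive and passed for 5 of the 19, Gbp6, Gbp8, Gbp10, Tgtp1 and Tgtp2, against 5.97% of all tested genes. Those of Gbp6 and Tgtp1 held in all 20 alternatives, and that of Gbp8 held in 6.

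**Figure D4:**
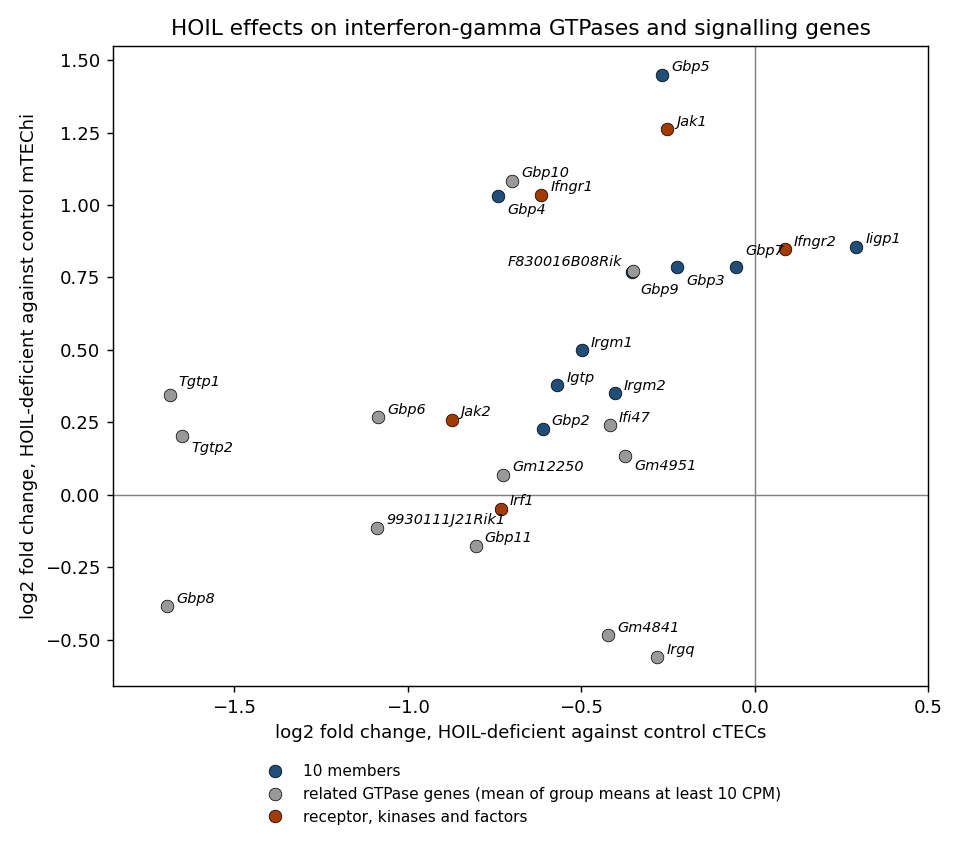
Log2 fold change without HOIL in cTECs (horizontal axis) against that in mTEChi (vertical axis), from libraries that the axes do not share, for the 10 members, the related GTPase genes with a mean of at least 10 CPM and 5 signalling genes. Of the members, 9 lie in the upper left of the plot, lower in cTECs and higher in mTEChi, as do Jak1, Jak2 and Ifngr1.

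Over the 6 mTEChi libraries the correlation of log2 CPM between members was positive for 45 of 45 pairs, with a median Pearson r of 0.83. Over the 6 cTEC libraries it was positive for 41 of 45 pairs with a median of 0.58, and over all 12 for 30 of 45 with a median of 0.37. Each set holds libraries with and without HOIL. All 10 members had a positive log2 fold change in mTEChi, so the mTEChi correlations include that shift. These points also share their libraries, depth and the low control mTEChi replicate 1, and the values are given as a description. Iigp1 followed the mean of the standardised members least in cTECs (r = 0.34) and Igtp least in mTEChi (r = 0.80). Irf1 followed that mean with r = 0.40 over 12 libraries, 0.84 in cTECs and 0.41 in mTEChi, and Ifngr1 with 0.60, 0.095 and 0.98. Other tested genes were ranked by likeness to the mean, leaving out those without a symbol or with a predicted or clone-style name. The most alike over 12 libraries were Strbp (r = 0.93), Mtfr1 and Zfp62 (both 0.89), and Zfp719 and Sypl (both 0.88). Over the 6 cTEC libraries they were Zfp771, Nlrp1b, Mapk13, Fam71e1 and Syn3, with r from 0.98 to 0.99. Over the 6 mTEChi libraries they were Capza2, Dennd10, Pnpla8, Bzw1 and Cep68, with r from 0.998 to 0.999. They are the highest of the genes so kept from the 19398 tested, over few libraries.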

How the data were processed

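RNA was measured in 12 libraries, 3 in each of 4 groups assigned from the titles. The authors deposited raw gene counts made with featureCounts on mm10, per the submitters' processing notes, with a gene length beside each count. The sources used here name neither the aligner nor the use of strand, and reads of overlapping and near-identical genes cannot be told apart. Entrez numbers were matched to RefSeq symbols for 25275 of 27179 genes (93.0%). A signalling gene is not reported here. The members and gene lists were chosen with earlier results of these data known.

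Counts were filtered with filterByExpr (minimum count 10), scaled by TMM and fitted with edgeR 4.0.16 (R 4.3.3; quasi-likelihood, robust) on all 12 libraries with no block. P-values were adjusted over 19398 genes, with 0.05 as the threshold. CPM are scaled by the library total. The fit was tested on simulated data. Named genes are the 10 members, genes of the lists of related GTPases, interferon signalling and other interferon-gamma targets, up to 4 of each other list with the smallest p, Rbck1, and the 5 genes most like the members' mean. Alternatives were RLE and upper-quartile factors, no filter, DESeq2 1.42.0, limma-voom (limma 3.58.1), only the groups compared, male libraries only, replicate blocks and leaving out each library. ISRE, GAS and NF-kB motifs were counted in RefSeq windows, and shared 75-base windows in GENCODE transcripts. Each library was counted as its own sample. Chi-square per degree of freedom between replicates was 6.18 to 55.1, above counting error. That spread cannot tell separate animals from separate preparations of the same RNA.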

Additional observations from a re-analysis of the deposited data

Results flagged for a closer look

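The effect of HOIL loss differed between the cell types for 5 of the 10 GTPases, by the test of the difference itself, mTEChi minus cTECs on the log2 scale. The difference was 0.84 for Gbp2, 1.01 for Gbp3, 1.77 for Gbp4, 1.12 for Gbp9 and 0.95 for Igtp. Each had an edgeR adjusted p under 0.05 (from 0.016 to 0.038). Of all tested genes 5.97% were called in this direction and 9.84% in either. Gbp2 and Gbp3 lost this call in 12 of 20 alternatives, Gbp9 in 10, Igtp in 3 and Gbp4 in 1, and without control mTEChi replicate 1 the count was 2 of 10.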

How the results depend on the processing

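Without control mTEChi replicate 1 no member was called in mTEChi. Over the fits that leave out 1 library, members called higher in mTEChi ranged from 0 to 5, members called lower in cTECs from 0 to 2, and members with a positive difference from 1 to 6. Between cell types, members called in controls ranged from 0 to 1 higher and 3 to 6 lower, and without HOIL from 1 to 3 lower. All genes called ranged from 688 to 1291 higher and 627 to 1172 lower in cTECs, from 1170 to 2498 higher and 774 to 1897 lower in mTEChi, and from 500 to 1270 higher and 449 to 818 lower for the difference. Members called lower in cTECs numbered 1 with RLE factors, 1 with upper-quartile factors, 1 with no filter, 0 with only the groups compared (unadjusted p under 0.05 for 4) and 0 with males only (unadjusted p under 0.05 for 2). All genes called lower there numbered 567 with only the groups compared and 709 with males only, and those called higher 1794 with DESeq2, which called 2556 lower in mTEChi and 1476 negative differences. For the difference, members called numbered 2 with RLE factors, 1 with upper-quartile factors, 3 with no filter and 0 with males only, and genes called higher 714 with RLE, 651 with upper-quartile factors and 571 with males only, which called 459 lower. In controls 3 members were lower in mTEChi with RLE, upper-quartile factors or DESeq2. The cause of these changes was not tested, beyond the smaller number of libraries in some fits.

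The deposited names give same-numbered cTEC and mTEChi libraries of a genotype the same letter. Deviations of these pairs from their group means correlated at 0.00035, 0.098 and -0.037 in controls and 0.049, 0.078 and 0.035 without HOIL. Such small values from 3 libraries per group cannot decide whether the pairs share animals. The reported fit did not take the numbers to pair animals. A fit with the replicate number as a block called 1 member lower in cTECs in place of 2 and 2 members lower in mTEChi than in cTECs without HOIL in place of 1, and a block within genotype called 3. The block changed no other count of members called by over 1.5 times.

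Signs turned only for values that were not called. In cTECs Gbp7 was at 0.008 with RLE, 0.026 with upper-quartile factors, 0.0081 with DESeq2 and 0.12 with males only, and Gbp5 at 0.25 with males only. Without single libraries Gbp7 ranged from -0.36 to 0.12, Gbp5 from -1.07 to 0.25, Iigp1 from -0.0101 to 0.53 and Ifngr2 from -0.028 to 0.21 in cTECs, and Irgm2 from -0.016 to 0.64 and Irf1 from -0.17 to 0.001 in mTEChi. Between cell types in controls Gbp5 was at 0.16 with RLE, 0.14 with upper-quartile factors, 0.16 with DESeq2, 0.095 with limma-voom and 0.064 with the block within genotype, and Igtp at 0.035 with RLE, 0.014 with upper-quartile factors and 0.035 with DESeq2. Without single libraries Gbp5 ranged there from -0.35 to 0.38 and Gbp9 from -0.078 to 0.35, and without HOIL Gbp7 from -0.057 to 0.48 and Iigp1 from -0.59 to 0.094. Gbp5 had the lowest counts of the members, 10 to 180 per library, and in HOIL-deficient cTECs its CPM spread 10.7-fold. The part of depth in its results was not tested.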

Other observations

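Other interferon-gamma targets did not all follow the GTPases. Of 20 such genes tested, 8 fell in HOIL-deficient cTECs, among them Cd274 (PD-L1; log2 fold change -1.47 ± 0.14, edgeR adjusted p = 4.8e-05), Ifi30 (a lysosomal thiol reductase of antigen processing; -0.80 ± 0.14, adjusted p = 0.003) and Cxcl11 (a chemokine; -1.11 ± 0.23, adjusted p = 0.0071), against 6.02% of all tested genes. In HOIL-deficient mTEChi 5 of the 20 fell and 1 rose, against 8.59% and 11.3%, while 4 of the 10 GTPases rose and their median was 0.78. The genes that fell were the immunoproteasome subunits Psmb8 (-0.94 ± 0.24, adjusted p = 0.014) and Psmb9 (-0.78 ± 0.14, adjusted p = 0.0023), the MHC class I activator Nlrc5 (-0.84 ± 0.24, adjusted p = 0.023), Xaf1 (-0.84 ± 0.19, adjusted p = 0.0078) and Cd274 (-0.48 ± 0.14, adjusted p = 0.025), and Ifi30 rose (0.52 ± 0.14, adjusted p = 0.019). The calls of Psmb9 and Xaf1 held in all 20 alternatives, while others were lost without single mTEChi libraries: Psmb8 without control replicate 3 or HOIL-deficient replicate 2, Nlrc5 without control replicate 2 or 3 or HOIL-deficient replicate 1 or 2, Cd274 without replicate 1 or 2 of either group, and Ifi30 without replicate 1 or 3 of either group. With male libraries alone the mTEChi calls of Cd274 and Ifi30 were lost as well.

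Of 24 genes best known as targets of type I interferon, 6 fell in HOIL-deficient cTECs, against 6.02% of all tested genes, and 7 fell and 1 rose in HOIL-deficient mTEChi, against 8.59% and 11.3%. Isg15, a ubiquitin-like protein, fell in mTEChi by 2.32 on the log2 scale (SE 0.32, edgeR adjusted p = 0.00053), and this call held in all 20 alternatives. Of the 12 tested genes of type I and III interferon signalling, 1 fell in mTEChi, the receptor subunit Ifnlr1 (-2.01 ± 0.43, edgeR adjusted p = 0.0058), against 8.59% of all tested genes. Of 18 genes of the ubiquitin and autophagy machinery that acts with the GTPases at vacuoles, 2 rose and 1 fell in cTECs and 3 rose in mTEChi, against 6.06%, 6.02% and 11.3% of all tested genes, so the counts lay near the background. Those that rose in mTEChi included Map1lc3a (1.42 ± 0.19, edgeR adjusted p = 0.00041) and Lgals8 (0.72 ± 0.16, adjusted p = 0.0064). Of 9 inflammasome genes 1 rose and 1 fell in cTECs, against 6.06% and 6.02% of all tested genes, and in mTEChi edgeR, DESeq2 and limma-voom called 0, with 0, 1 and 1 at an unadjusted p under 0.05. Whether these lists and the GTPases differ was not tested.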
